A study of Homo sapiens with 9 samples.

Results

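The LINC transcripts are long intergenic noncoding RNAs that carry a number in place of a functional name. They were chosen by symbol and by measured level in a table of transcript levels scaled for length and depth (TPM): LINC followed by digits only, with a mean of at least 0.5 TPM over 9 libraries. Of 1629 such symbols in the table, 133 (8.16%) reached that level. A further 332 were above 0 in some library with a lower mean, and 1164 were listed at 0 in every library. The table holds 25540 symbols in all, of which 11528 reached the same mean of 0.5 TPM.

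Long intergenic noncoding RNAs are transcribed, capped and often spliced like mRNAs, but most are not known to be translated. They are usually less abundant than mRNAs, many stay in the nucleus, and some act on genes next to their own locus. KHSRP (KH-type splicing regulatory protein) binds AU-rich RNA, recruits decay enzymes to mRNAs that carry AU-rich elements, and assists the maturation of some microRNA precursors.

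The libraries came from CAL-1 cells, an established human line derived from BPDCN, an aggressive malignancy of plasmacytoid dendritic cell precursors. CRISPR interference, which blocks transcription of a gene without cutting it, was used against KHSRP in 2 groups of 3 libraries, KHSRPi#1 and KHSRPi#2. The meaning of their numbers is left unstated in the labels, and they are called guide 1 and guide 2 here. The control group of 3 libraries, NTC, carries the genotype label WT. All 9 libraries share the cell line and 1 batch label, and nothing in the labels says that replicates were separate cultures. The p-values below therefore reflect only how these libraries vary, which may be technical. The comparison asks which transcripts change in level when KHSRP is reduced.

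KHSRP itself averaged 35.1 TPM with guide 1 and 35.3 TPM with guide 2, against 237 TPM in NTC, so the levels match the labels. Of 11 markers of plasmacytoid dendritic cells, 10 were above 0.5 TPM and IL3RA was listed at 0 in every library. Whether the 0 of IL3RA comes from the cells or from the mapping and counting of reads was not tested. Their summed level was 3962 to 4360 TPM with guide 1, 3840 to 4378 TPM with guide 2 and 3716 to 4224 TPM in NTC. Of 10 markers of other blood cells, NCAM1 and LYZ were above 0.5 TPM. NCAM1 is also a marker of BPDCN itself, so its level does not point to other cells. The T cell marker CD3D and the globin gene HBA1 were listed at 0 in every library. The summed level of these 10 was 130 to 158 TPM with guide 1, 127 to 144 TPM with guide 2 and 123 to 168 TPM in NTC. The replicate 3 library of each group is known from earlier results to stand apart from replicates 1 and 2, so each comparison is given without and with a term for these libraries. Judged by the spacing of low TPM values, depth relative to NTC replicate 1 ran over 0.98 to 1.83.

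The promoters of 3 of the 4 transcripts that the knockdown comparison turns on are shown first, 5′ to 3′ from 250 bases before to 50 bases after the annotated start (RefSeq, GRCh38.p14). Capitals mark the box CCAAT, read as ATTGG on the other strand, which is the binding motif of the factor NF-Y. LINC00565 lies at chr13:113928942-113929241 on the minus strand, LINC00963 at chr9:129488410-129488709 on the plus strand and LINC01535 at chr19:37251635-37251934 on the plus strand. LINC00342 is the fourth.
LINC00565: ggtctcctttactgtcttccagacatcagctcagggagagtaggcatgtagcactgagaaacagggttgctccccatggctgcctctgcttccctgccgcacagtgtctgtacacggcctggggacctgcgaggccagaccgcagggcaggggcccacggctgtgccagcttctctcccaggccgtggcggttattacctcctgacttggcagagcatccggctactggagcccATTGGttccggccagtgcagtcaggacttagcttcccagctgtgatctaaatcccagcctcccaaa
LINC00963: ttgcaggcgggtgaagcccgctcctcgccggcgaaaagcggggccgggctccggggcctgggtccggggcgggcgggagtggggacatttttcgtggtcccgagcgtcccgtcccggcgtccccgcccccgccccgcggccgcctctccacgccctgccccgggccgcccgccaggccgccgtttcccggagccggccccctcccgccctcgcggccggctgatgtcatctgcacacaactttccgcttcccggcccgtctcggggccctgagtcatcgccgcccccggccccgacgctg
LINC01535: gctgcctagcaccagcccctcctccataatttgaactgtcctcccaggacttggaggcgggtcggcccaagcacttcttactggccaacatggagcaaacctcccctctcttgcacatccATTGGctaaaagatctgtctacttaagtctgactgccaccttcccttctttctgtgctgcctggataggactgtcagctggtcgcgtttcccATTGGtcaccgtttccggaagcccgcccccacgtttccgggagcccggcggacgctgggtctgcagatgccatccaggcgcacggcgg

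The LINC00565 window holds 1 CCAAT box at position -16 from the annotated start, and the LINC01535 window holds 2, at -130 and -38. The LINC00963 window holds none, and differs from the others in base composition: it has 78.0% G and C and 43 CpG pairs, against 60.3% and 9 for LINC00565 and 59.3% and 15 for LINC01535. Of the 133 LINC transcripts, 98 had a promoter in the RefSeq table, with a median of 54.9% G and C and 13 CpG pairs, against 58.7% and 14 over all 35116 promoters. A CCAAT box was present in 45 of the 98 (45.9%), against 34.6% of all promoters, with both strands searched. The GC box GGGCGG was present in 42.9% of the 98 and 45% of all, and among the called transcripts in LINC00963 and LINC01535. The TATA box TATAAA was present in 12.2% and 11.5%, and in none of the 3 windows. CACGTG was present in 9.18% and 7.26%. TGACTCA, the motif of AP-1, was present in 6.12% and 4.95%, and LINC00963 has it in the form TGAGTCA.

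The LINC transcripts as a class were weakly expressed. Their median level was 1.94 TPM, against 19.5 TPM over all 11528 symbols. Of the 133, 14 reached 10 TPM, 28 reached 5 TPM, 101 reached 1 TPM and 32 lay between 0.5 and 1 TPM. Their sum was 526, 526 and 582 TPM in the guide 1 libraries and 553, 544 and 569 TPM in the guide 2 libraries, against 498, 528 and 515 TPM in NTC. The knockdown libraries were thus mostly above the controls, but the sums overlapped, since 2 guide 1 libraries lay below NTC replicate 2. These sums are about 0.05% of each library, with means of 0.0545% for guide 1, 0.0555% for guide 2 and 0.0514% for NTC, and the 10 most abundant transcripts held 37.6% to 41.6% of them.

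The most abundant was LINC01724, at 35.6 to 52.9 TPM, which lies on chromosome 1 outside protein-coding genes. It was above LINC01578 in each of the 9 libraries, although the ranges of the 2 transcripts overlapped. LINC01578, at 31.7 to 39.9 TPM, is now named CHASERR and is known in mouse and human cells to lower the expression of its neighbour CHD2, which encodes a chromatin remodeller. CHASERR was at 33.0 ± 1.78 TPM with guide 1, 35.3 ± 4.14 TPM with guide 2 and 35.4 ± 3.49 TPM in NTC (mean ± SD, n = 3 each). CHD2 was at 23.5 ± 1.44 TPM with guide 1, 24.4 ± 1.46 TPM with guide 2 and 23.3 to 26.4 TPM in NTC. The groups overlapped for both genes. LINC02363 followed at 18.6 to 34.5 TPM, LINC01089 at 14.1 to 23.5 TPM and LINC00467 at 14.7 to 22.0 TPM. LINC00847 ranged over 12.6 to 20.7 TPM and LINC02001, now listed as the small nucleolar RNA host gene SNHG30, over 12.8 to 18.2 TPM. LINC01037 was at 10.8 to 18.4 TPM, LINC00909 at 13.3 to 15.6 TPM and LINC00339 at 9.89 to 16.8 TPM. From LINC01724 down, each of these 10 overlapped the next in range. Within libraries, LINC01724 was above the next in 9 of 9, LINC02363 above LINC01089 in 8, and the other neighbouring pairs kept the order of their means in 4 to 7.

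**Figure D1:**
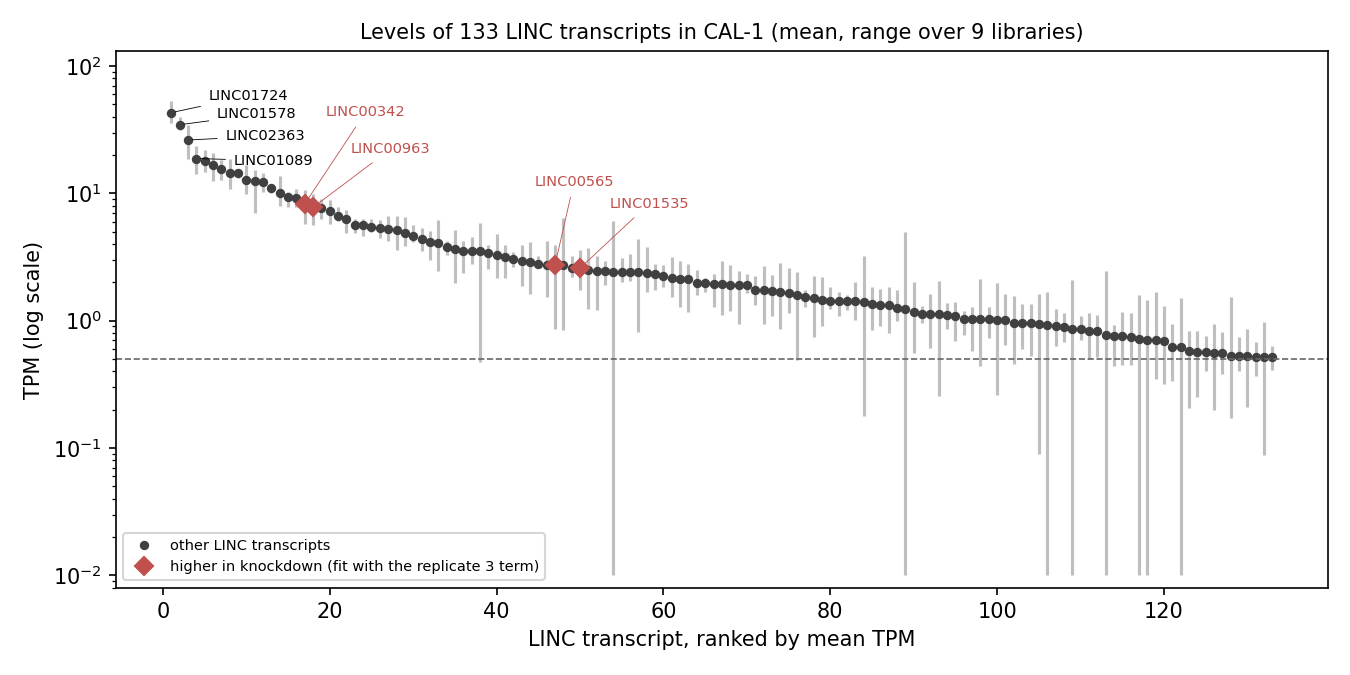
Mean TPM of the 133 LINC transcripts (vertical axis, log scale) in order of their mean (horizontal axis), with grey bars for the lowest to highest of 9 libraries, bars that reach the floor of the plot for transcripts listed at 0 in a library, and a dashed line at 0.5 TPM. The levels run from 43.0 TPM for LINC01724 to 0.516 TPM for LINC01347, and the 4 marked transcripts lie in the upper and middle part of that range.

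Around the threshold, the lowest of the 133 were LINC00865 (0.522 TPM), LINC00920 (0.519 TPM) and LINC01347 (0.516 TPM). The symbols just under it were LINC01800 (0.499 TPM), LINC00431 (0.495 TPM) and LINC01238 (0.461 TPM). The spread over the 9 libraries was wide among low transcripts. The median coefficient of variation was 12.3% for the 28 transcripts of 5 TPM or more, 23.4% for the 73 between 1 and 5 TPM and 33.9% for the 32 between 0.5 and 1 TPM. Over all symbols at those levels it was 7.02%, 16.3% and 27.7%. LINC00909 was the steadiest, at 4.53%, and LINC00384 the most variable, at 157%: it was listed at 0 in 6 libraries and at 3.19 TPM in guide 1 replicate 1, 2.84 TPM in guide 2 replicate 1 and 5.00 TPM in NTC replicate 3. Of the 133, 125 were above 0 in every library and 8 were listed at 0 in at least 1.

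Where TPM values of 1 gene are whole reads multiplied by a constant for each library, the read numbers can be recovered up to a common factor. This succeeded to within 0.05 of a read for 91 of the 133 transcripts (68.4%). For the rest no read numbers were recovered, and the reason was not tested. The median over the 91 was 39 reads per library, 42 of them had a median of at least 50 and 12 had a median under 10. LINC01775 rested on 0 to 3 reads, and LINC01063, with TPM values from 0 to 6.04, on 0 to 5 reads. LINC01545 rested on 0 to 12 reads. Their values carry a large counting error.

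Reduction of KHSRP was accompanied by a higher level of LINC00565. This RNA, now listed as SWINGN, is known in other human cells for binding the SWI/SNF chromatin remodelling complex and for raising the expression of its neighbour GAS6, the ligand of the TAM receptor tyrosine kinases. In GENCODE 29 (GRCh38) the gene spans chr13:113926514-113928844 on the minus strand, outside protein-coding genes, with 1 transcript of 1 exon and 2331 bases. Its level was 3.42, 3.42 and 3.19 TPM in the guide 1 libraries and 3.57, 3.93 and 3.52 TPM in the guide 2 libraries, against 1.37, 1.28 and 0.854 TPM in NTC. All 6 knockdown libraries lay far above all 3 controls, and the lowest library of all was NTC replicate 3. The recovered reads were 163, 170 and 163 with guide 1 and 196, 138 and 140 with guide 2, against 49, 68 and 56 in NTC. Group means were 3.35 ± 0.131 TPM with guide 1 and 3.67 ± 0.221 TPM with guide 2, against 1.17 ± 0.275 TPM in NTC (SD, n = 3 each), and the mean of the 6 knockdown libraries was 3.00 times that of NTC. In bulk libraries a higher level per cell and a larger share of cells with the transcript cannot be told apart.

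LINC00565 was named in the selection because earlier results of these data had shown this difference, so its values describe it and add no independent support. On the log2(TPM + 1) scale, which understates changes of low transcripts, it rose by 1.06 on average over the guides (SE 0.09, limma adjusted p = 0.00158), by 1.01 with guide 1 (SE 0.11, adjusted p = 0.00973) and by 1.11 with guide 2 (SE 0.11, adjusted p = 0.00392). Between guide 2 and guide 1 the difference was 0.10 (95% interval -0.14 to 0.34). P-values were adjusted over all 11528 symbols and called under 0.05. It was called on average over the guides whichever library was left out (adjusted p up to 0.0137), but the guide 1 contrast was lost when NTC replicate 2 was left out (0.051), and likewise for KHSRPi#1 replicate 1 (0.096) and KHSRPi#1 replicate 2 (0.0982). No 50-base word of its transcript was found in a transcript of another gene in GENCODE 29.

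Among the 133 LINC transcripts LINC00565 was the only call in that fit (0.752%), and none was lower. Over all symbols 0.0781% were called, 0.0434% higher and 0.0347% lower. The selection named LINC00565 for this known difference, so its call was given in advance. The share of 0.752% therefore cannot be read as an excess over the background. LINC00565 also counts in the shares of LINC transcripts higher in knockdown given below. At an unadjusted p under 0.05, 20 of the 133 (15%) were higher and 2, LINC00641 and LINC00920, were lower, against 5.4% and 2.57% of all symbols. The 20 include LINC00565, and LINC01260, which passed the filter of 0.5 TPM only through the knockdown libraries. The share of 15% was not recomputed without them, so it shows no excess over 5.4%. Without the replicate 3 term each guide called LINC00565 alone, where 0.0347% of all symbols were called higher with either guide.

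With a term for the replicate 3 libraries, LINC00963, LINC00342 and LINC01535 were called higher besides LINC00565, again with none lower: 4 of 133 (3.01%), against 1.12% of all symbols called higher and 0.442% lower. Of the 3, LINC00963 has been described in prostate cancer cells; no role of LINC00342 or LINC01535 is stated here. LINC00963 was at 7.74, 7.65 and 9.67 TPM with guide 1 and 8.13, 7.78 and 9.83 TPM with guide 2, against 5.59, 6.20 and 7.25 TPM in NTC. The 6 knockdown libraries lay above all 3 controls, and within each group replicate 3 was the highest. Its log2 fold change was 0.37 (SE 0.06 with the term, limma adjusted p = 0.00983, and SE 0.10, adjusted p = 0.404 without). It was also called for guide 1 alone (adjusted p = 0.0422) and guide 2 alone (0.0249) in the limma fit with the term. With the term, guide 1 alone called 2 of the 133 (1.5%), LINC00565 and LINC00963, against 0.347% of all symbols higher, and guide 2 alone called 3 (2.26%), those and LINC00342, against 0.529%.

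LINC00342 was at 8.39, 8.43 and 9.02 TPM with guide 1 and 8.39, 9.65 and 10.7 TPM with guide 2, against 5.76, 6.71 and 7.23 TPM in NTC. Again the groups did not overlap and replicate 3 was the highest of each. Its log2 fold change was 0.42 (SE 0.07 and limma adjusted p = 0.0114 with the term, SE 0.09 and adjusted p = 0.218 without). With the term it was called for guide 2 (limma adjusted p = 0.0216) and not for guide 1 (0.0776); the difference between the guides was 0.13 (95% interval -0.09 to 0.36, without the term). LINC01535 was at 2.91, 2.30 and 3.57 TPM with guide 1 and 2.64, 2.87 and 3.25 TPM with guide 2, against 1.99, 1.74 and 1.99 TPM in NTC. Its lowest knockdown library, guide 1 replicate 2, was still above the highest control. Its log2 fold change was 0.43 (SE 0.09 and limma adjusted p = 0.0368 with the term, SE 0.11 and adjusted p = 0.352 without). In the recovered reads, the 9 libraries held 168 to 413 reads of LINC00963, 268 to 615 of LINC00342 and 58 to 148 of LINC01535.

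**Figure D2:**
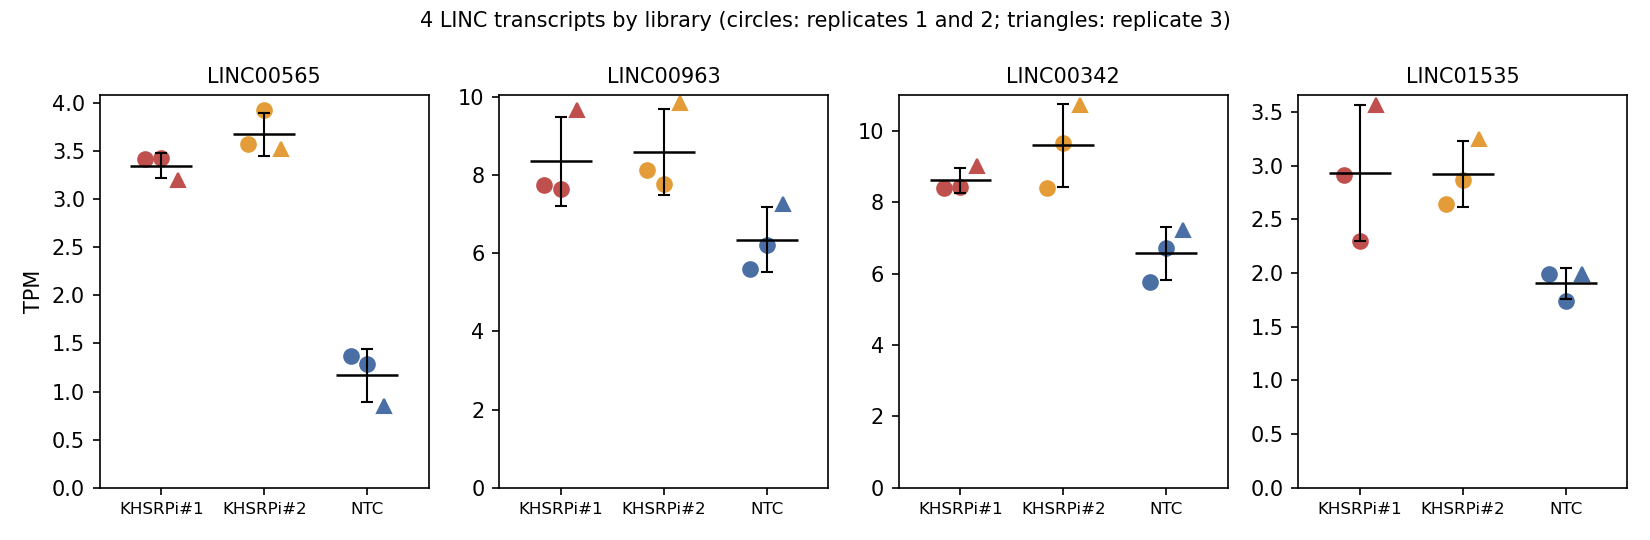
TPM (vertical axes, from 0) of LINC00565, LINC00963, LINC00342 and LINC01535 in each library of KHSRPi#1, KHSRPi#2 and NTC, with the mean and SD of 3 libraries. LINC00565 is at 3.19 to 3.93 TPM in the knockdown libraries and 0.854 to 1.37 TPM in NTC, and the other 3 also lie above all controls by smaller margins.

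These 3 calls rest on the term and on single libraries. With the term, LINC00963 was not called without NTC replicate 1 (limma adjusted p = 0.0518) or NTC replicate 3 (0.0871). LINC00342 was not called without NTC replicate 1 (0.061) or NTC replicate 3 (0.0846). LINC01535 was called in 1 of the 9 fits that left out a library, with adjusted p up to 0.232. For guide 1 alone LINC00963 was called in none of the 9, with adjusted p from 0.0508 to 0.204; for guide 2 alone it was called in 4 and LINC00342 in 5. LINC00565 was called in all 9 in each of these contrasts. At an unadjusted p under 0.05 the fit with the term had 28 LINC transcripts higher (21.1%) and 4 lower (3.01%), against 10.9% and 6.24% of all symbols. Without any filter on low values, LINC00565 was the only one of the 4 called in the fit with the term. Of 50-base words in the longest transcript, 26.5% in LINC00342 and 16.4% in LINC01535 also occur on the same strand in transcripts of other genes, AC092683.1 and LINC00665, against 2.89% in LINC00963, so reads of LINC00342 and LINC01535 may be split with those genes. Over 121 LINC transcripts with a GENCODE transcript, 64 shared no such word and 6 shared over 50%, among them LINC01089, with RHOF, and LINC01260, with AL139352.1.

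Some cell markers were called in the fit with the replicate 3 term. CLEC4C, TCL1A and GZMB, 3 of 10 tested plasmacytoid dendritic cell markers (30%), were called higher there, against 1.12% of all symbols. NCAM1 and LYZ, the 2 tested genes of the other marker list, were not called. Without the term no gene of either marker list was called. GZMB, the cytotoxic protease granzyme B, was at 84.8 ± 24.3 TPM with guide 1 and 82.2 ± 23.8 TPM with guide 2, against 41.2 ± 10.6 TPM in NTC (SD, n = 3 each). The part of these changes in the LINC results was not tested.

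All 6 knockdown libraries lay above all 3 controls for 9 of the 133 transcripts (6.77%), against 3.14% of all symbols, and below them for none, against 1.54%. Besides the 4 already given these were LINC00471, LINC00476, LINC00899, LINC00997 and LINC01260. LINC00565 was named for this difference, and LINC01260 passed the filter only through the knockdown libraries. The share of 6.77% was not recomputed without them, so no excess over 3.14% can be read from it. LINC00997 was at 6.53, 8.02 and 8.53 TPM with guide 1 and 8.80, 7.19 and 8.60 TPM with guide 2, against 5.72, 6.20 and 6.29 TPM in NTC; its log2 fold change of 0.33 was not called (limma adjusted p = 0.0682 with the term). LINC00471 averaged 1.71 ± 0.504 TPM with guide 1 and 1.73 ± 0.257 TPM with guide 2, against 1.06 ± 0.277 TPM in NTC (SD, n = 3 each), and was not called (limma adjusted p = 0.14 with the term); its lowest knockdown library and its highest control were both at 1.25 TPM. LINC01260, on 3 to 16 reads, averaged 0.629 TPM with guide 1 and 0.674 TPM with guide 2, against 0.265 TPM in NTC, so it reached the mean of 0.5 TPM only through the knockdown libraries and had to differ. Of the 133, 9 had a mean under 0.5 TPM in NTC and 2 in the knockdown libraries. LINC00899 was at 1.46 to 2.59 TPM in the knockdown libraries, against 1.16 to 1.39 TPM in NTC. LINC00476, now ERCC6L2-AS1, averaged 1.52 and 1.47 TPM with guides 1 and 2, against 1.27 TPM in NTC.

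Small positive differences were more frequent than negative ones. The median log2 fold change of the 133 was 0.07, with 89 above 0 and 44 below, against 0.02 over all 11528 symbols, of which 58.4% were above 0. It was 0.10 over 402 other long noncoding RNA symbols, of which 73.1% were above 0, and 0.01 over 10197 protein-coding symbols. By level, the median was 0.06 for the 28 LINC transcripts of 5 TPM or more, 0.07 for the 73 between 1 and 5 TPM and 0.07 for the 32 under 1 TPM. These medians describe the lists and were not tested. The median of the 133 was 0.0284 under quantile normalization and 0.0267 at a pseudocount of 5. Among the most abundant transcripts, LINC02001 was at 17.3 ± 0.997 TPM with guide 1 and 15.3 ± 1.79 TPM with guide 2, against 13.6 ± 0.728 TPM in NTC (SD, n = 3 each; limma adjusted p = 0.108 with the term). LINC01724 was at 38.7 to 46.0 TPM with guide 1 and 35.6 to 44.4 TPM with guide 2, against 40.0 to 52.9 TPM in NTC (limma adjusted p = 0.197 with the term).

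**Figure D3:**
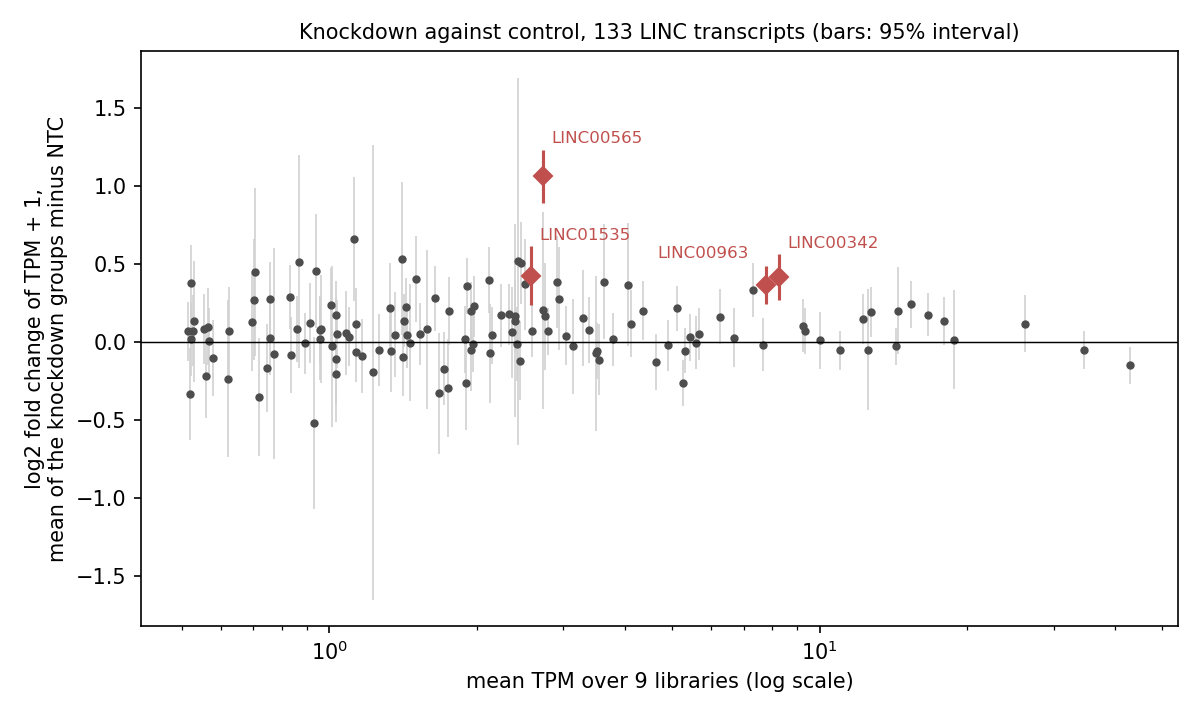
Log2 fold change of TPM + 1, mean of both knockdown groups minus NTC, with its 95% interval in the fit with the replicate 3 term (vertical axis), against mean TPM (horizontal axis, log scale) for 133 LINC transcripts. Red diamonds mark the 4 called transcripts, from 0.37 for LINC00963 to 1.06 for LINC00565, and intervals widen toward low TPM.

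No LINC transcript was called different between the guides, and neither was any of the 11528 symbols (0%). At an unadjusted p under 0.05, 6 of the 133 (4.51%) differed between guide 2 and guide 1, against 1.21% of all symbols: LINC00578, LINC00609, LINC00926, LINC01431 and LINC01473 were higher with guide 2 and LINC00158 was lower. A call missed at this depth does not show that the guides act alike. For LINC00963 the interval of the difference was -0.23 to 0.31 and for LINC01535 it was -0.27 to 0.28.

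All 133 symbols matched RefSeq, 21 of them under a newer name, and 132 are listed there as long noncoding RNAs. The exception, LINC02581, is now the protein-coding gene RNF227. In GENCODE 29, which holds 121 of the 133, 95 lie outside protein-coding genes, 14 overlap one on the opposite strand and 12 overlap one on the same strand. The sources used here do not say whether the authors' counting used strand, so reads of overlapping genes cannot be told apart. All 4 called transcripts belong to the 95. The median log2 fold change was 0.07 for the 95, 0.08 for the 14 and 0.07 for the 12.

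The neighbours of the called transcripts did not pass the test. GAS6, on the same strand 62.4 kb from LINC00565, was at 29.5, 29.5 and 30.2 TPM with guide 1 and 31.4, 29.8 and 30.0 TPM with guide 2, against 32.7, 28.4 and 30.6 TPM in NTC. The groups overlapped, and the log2 fold change of GAS6 was -0.02 (95% interval -0.14 to 0.10, limma adjusted p = 0.946). RASA3, a Ras GTPase-activating protein 48.9 kb away on the other side, averaged 45.0 ± 3.48 TPM with guide 1 and 47.6 ± 2.90 TPM with guide 2, against 44.6 ± 2.93 TPM in NTC (SD, n = 3 each; limma adjusted p = 0.88). LINC00963 (chr9:129483451-129513686, plus strand, 20 transcripts) has as nearest tested genes PTPA, an activator of protein phosphatase 2A, at 334.5 kb, and NTMT1, an N-terminal methyltransferase, at 95.2 kb. PTPA averaged 75.1 and 73.7 TPM with guides 1 and 2, against 76.9 TPM in NTC, and NTMT1 30.9 and 28.7 TPM, against 31.7 TPM in NTC. LINC01535 (chr19:37251912-37265535, plus strand) lies 3.2 kb from ZNF383 and 47.3 kb from HKR1, both KRAB zinc finger genes on the same strand. ZNF383 averaged 8.75 and 8.81 TPM with guides 1 and 2, against 7.61 TPM in NTC, and HKR1 6.34 and 6.92 TPM, against 5.90 TPM in NTC. The nearest tested genes of LINC00342 (chr2:95807118-95816215, minus strand) were FAHD2A, 390.5 kb away, and ANKRD36C, 20.7 kb away. FAHD2A averaged 29.9 and 29.1 TPM with guides 1 and 2, against 27.1 TPM in NTC, and ANKRD36C averaged 3.89 and 4.22 TPM, against 3.38 TPM in NTC. Over 121 LINC transcripts the nearest tested protein-coding gene lay at a median distance of 35.5 kb, overlapping genes aside, and none of these neighbours was called without or with the term. Of 15 tested protein-coding genes that overlap a LINC transcript, CSTF3 was called. This gene, a subunit of the factor that cleaves the 3′ ends of mRNAs, overlaps LINC00294 on the opposite strand. CSTF3 was at 63.9, 63.8 and 66.9 TPM with guide 1 and 67.6, 64.7 and 67.2 TPM with guide 2, against 81.1, 84.3 and 85.6 TPM in NTC. All 6 knockdown libraries lay below all controls, and the log2 fold change of CSTF3 was -0.34 (SE 0.04, limma adjusted p = 0.0174 without the term and 0.000829 with it). LINC00294 was at 10.3 to 14.4 TPM in the knockdown libraries, against 10.3 to 12.3 TPM in NTC, and was not called (log2 fold change 0.15, limma adjusted p = 0.33 with the term).

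Of the LINC transcripts, 13 start within 1000 bases of a protein-coding gene on the opposite strand, and 11 of those partners had values under the same symbol. No pair held a call. LINC01534 and its partner ZNF567 had log2 fold changes of 0.39 and 0.17, LINC01521 and PATZ1 0.23 and 0.02, and LINC01184 and SLC12A2, a chloride transporter gene, 0.11 and 0.16.

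KHSRP is known for binding AU-rich elements, whose core is ATTTA in the DNA alphabet. In the longest GENCODE transcript, 74.4% of the 121 LINC transcripts held ATTTA on the transcribed strand, with a median length of 2082 bases. It was 77.1% of 402 other long noncoding RNAs (median 1966 bases) and 83.5% of protein-coding symbols (median 3657 bases, coding sequence and untranslated regions together). The longer form TTATTTATT, which contains ATTTA, was present in 7.44%, 7.96% and 11.3%. LINC00565 had none of either in 2331 bases. LINC00963 had 8 matches to ATTTA in 9557 bases, LINC00342 had 4 in 2351 and LINC01535 had 3 in 1699. For each of these 3, the first match whose window of 30 bases lies within a single exon is shown, which need not be the first in the transcript. The windows, read 5′ to 3′ on their own strand, lie at chr9:129504493-129504522 (plus strand), chr2:95815706-95815735 (minus strand) and chr19:37263314-37263343 (plus strand) of GRCh38, with ATTTA in capitals.
LINC00963: ccaaccaaacacATTTAtgcatatgcataa
LINC00342: atgccattggtaATTTAatagggataactt
LINC01535: tcacatgcatggATTTAaatgctgtgtctt
These are matches of letters, not sites of binding, and whether KHSRP binds or destabilizes any of these transcripts was not tested.

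The replicate 3 libraries differed from replicates 1 and 2 in more LINC transcripts than the knockdown did. This split was chosen because earlier results of these data had shown the replicate 3 libraries apart. Its calls and p-values therefore describe the split and add no independent support for it, and the 2 numbers of calls are not a fair ranking. In the fit with both, 20 of the 133 were called: 13 (9.77%) were higher in replicate 3 and 7 (5.26%) lower, against 17.6% and 10.9% of all symbols. The share of LINC transcripts was thus below the background, and the part of their wider spread in this was not tested. Without KHSRPi#2 replicate 3, 13 were called. All 3 replicate 3 libraries lay above the other 6 for 11 of the 133 (8.27%), against 16.1% of all symbols, and below them for 7 (5.26%), against 10.5%.

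LINC02363 was at 34.5 TPM in guide 1, 32.4 TPM in guide 2 and 31.1 TPM in NTC replicate 3, against 18.6 to 26.1 TPM in replicates 1 and 2, a log2 difference of 0.50 (SE 0.08, limma adjusted p = 0.0015). LINC00173 was at 2.03, 1.83 and 1.71 TPM in replicate 3 of guide 1, guide 2 and NTC, against 0.558 to 1.14 TPM in the other libraries, a log2 difference of 0.66 (SE 0.11, limma adjusted p = 0.00126). LINC01412 was at 5.41 to 5.84 TPM in replicate 3 and at 0.47 to 4.33 TPM in the others. In the opposite direction, LINC00680 was at 3.57 to 4.63 TPM in replicate 3 and at 4.94 to 6.59 TPM in the others, a log2 difference of -0.36 (SE 0.06, limma adjusted p = 0.00226). LINC01724 was also lower in replicate 3, at 35.6 to 40.0 TPM against 41.9 to 52.9 TPM. In all 5 the replicate 3 libraries of the 3 groups lay on one side of the other 6. LINC01023 did not show this: NTC replicate 3, at 2.06 TPM, lay below NTC replicate 2, at 3.11 TPM, while replicate 3 was higher than in replicates 1 and 2 with both guides. LINC00963 was called in both comparisons, with a log2 difference of 0.28 for replicate 3 (SE 0.06, limma adjusted p = 0.00393); LINC00565 was not called for replicate 3 (-0.16, SE 0.08, adjusted p = 0.155). The myeloid marker LYZ was at 36.6 to 41.6 TPM in replicate 3 and at 59.1 to 90.8 TPM in the others, and its part in these differences was not tested. The labels give replicate 3 no batch of its own.

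**Figure D4:**
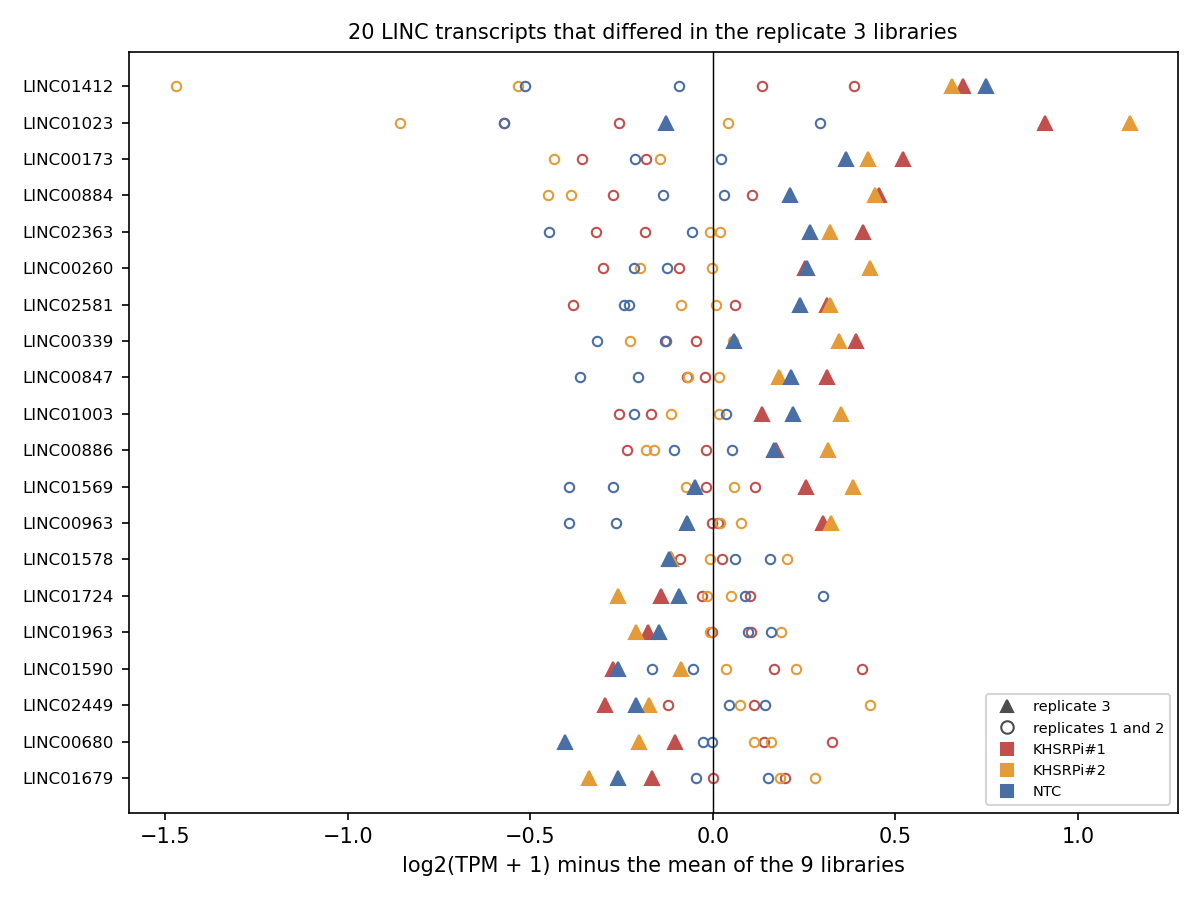
Log2(TPM + 1) of each library minus the mean of 9 libraries (horizontal axis) for the 20 LINC transcripts called between replicate 3 and replicates 1 and 2, with filled triangles for replicate 3, open circles for replicates 1 and 2, and colours for the groups. In 13 transcripts the triangles lie mostly to the right, with NTC triangles left of 0 for LINC00963, LINC01023 and LINC01569, and in the other 7 they lie to the left in all 3 groups.

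Other long noncoding RNAs and the enzymes that act on them were counted in the same fit. On average over the guides, 9 of 284 tested antisense transcripts (3.17%) were called higher with the term, against 1.12% of all symbols, none lower, and none without the term. ENO1-AS1, antisense to enolase 1, averaged 2.46 ± 0.361 TPM with guide 1 and 5.57 TPM (4.00 to 6.68) with guide 2, against 1.71 ± 0.207 TPM in NTC (SD, n = 3 each; limma adjusted p = 0.00799 with the term). With guide 2 alone it was called without the term too (limma adjusted p = 0.0226), and with guide 1 it was not called in either fit (0.298 with the term). TMCC1-AS1 averaged 10.2 and 9.48 TPM with guides 1 and 2, against 7.32 TPM in NTC. The others were MAP3K14-AS1, SEMA6A-AS1, PINK1-AS, PCED1B-AS1, TSPOAP1-AS1, ZNF337-AS1 and PPP3CB-AS1. Of 30 host genes of small RNAs, SNHG26 (3.33%) was called higher with the term, at 66.9 ± 9.14 TPM with guide 1 and 71.0 ± 2.59 TPM with guide 2, against 53.9 ± 7.72 TPM in NTC. None of 5 divergent and 18 intronic transcripts was called. With DLEU2, below, these classes held 11 calls with the term, 0 without NTC replicate 3, 4 without NTC replicate 1, 5 without KHSRPi#1 replicate 2 and 7 without KHSRPi#1 replicate 1 or 3.

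Of 26 well studied long noncoding RNAs, 17 were tested and DLEU2 alone (5.88%) was called higher with the term. DLEU2, the host of miR-15a and miR-16-1, averaged 15.3 ± 3.06 TPM with guide 1 and 15.9 ± 2.07 TPM with guide 2, against 10.9 ± 2.03 TPM in NTC (SD, n = 3 each; limma adjusted p = 0.0113 with the term, 0.404 without). MALAT1, an abundant nuclear RNA, averaged 834 TPM with guide 1 and 802 TPM with guide 2, against 714 TPM in NTC, and was not called (limma adjusted p = 0.147 with the term). Of 30 genes of nuclear RNA decay and noncoding RNA processing, the exosome and its cofactors among them, none was called without or with the term. EXOSC9, an exosome subunit, averaged 89.9 and 92.0 TPM with guides 1 and 2, against 83.9 TPM in NTC (limma adjusted p = 0.172 with the term). EXOSC10, a nuclease of the nuclear exosome, averaged 91.3 and 94.4 TPM with guides 1 and 2, against 99.4 TPM in NTC (limma adjusted p = 0.219 with the term).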

How the data were processed

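Gene expression was measured by RNA sequencing of total RNA in 9 libraries of CAL-1 cells (NucleoSpin RNA Plus XS and Roche Kapa, per the labels' protocols). The authors deposited 1 table of TPM per symbol, scaled to a sum of 1000000 in each library; Reads were placed on hg38, per the submitters' processing notes. The title of the table names the aligner STAR; version, annotation and strand setting: not given in the sources used here. Since read totals cannot be had from TPM, count models were left out; relative depth and read numbers were estimated from the steps of low values, as a description.

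All 11528 symbols with a mean of at least 0.5 TPM went into 1 two-sided limma test (version 3.58.1, R version 4.3.3) of log2 values after adding a pseudocount of 1, moderated with a trend on the mean and adjusted by Benjamini-Hochberg, in 1 fit of 3 groups, and again with a term for replicate 3. The fit without the replicate 3 term was tested on simulated data that held no replicate 3 difference. The fit with that term was not tested in this way. Python 3.11.15, numpy 2.4.6, pandas 2.3.3 and matplotlib 3.10.9 were used for the rest. Positions and transcripts came from GENCODE 29 and promoters from RefSeq (GRCh38.p14). Groups came from the sample titles.

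The transcripts, lists and tests were chosen with earlier results of these data known. Named were LINC00565, the 10 most abundant, every called transcript, those whose 6 knockdown libraries lie beyond the controls, those next to the threshold, up to 5 listed at 0 in a library, neighbours of called transcripts, called genes of each list or its 4 with the smallest adjusted p (not all of these are printed), and KHSRP. Genes outside that rule were chosen after their values were seen. Alternatives were other pseudocounts, filters, scalings, a replicate block, robust and untrended fits, fits of only the groups compared, and leaving out each library.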

Additional observations from a re-analysis of the deposited data

How the results depend on the processing

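The direction of LINC00565 on average over the guides held in 32 alternative fits, with log2 fold changes from 0.46 at a pseudocount of 5 to 1.53 at a pseudocount of 0.1, and it was called in each; it was not among the symbols tested at a filter of 5 TPM, where 0 LINC transcripts were called in any knockdown contrast without the replicate 3 term (with it, 3 on average, LINC00997 among them, 3 with guide 1 and 2 with guide 2). With guide 1 alone, no LINC transcript was called when only guide 1 and NTC were fitted (adjusted p = 0.0798 for LINC00565). With the replicate 3 term the calls were 4 on average, 2 with guide 1 and 3 with guide 2. Added after seeing the data, the term with median-ratio rescaling called 6 (LINC00997 higher and LINC00641 lower besides the 4), 3 and 3, and with quantile normalization 5, 3 and 3 (LINC01535 not, adjusted p = 0.0569); robust moderation with the term called 7 (LINC00997, LINC01215 and LINC01569 besides the 4) and moderation without a trend 5; LINC00641, chosen after its values were seen, was at adjusted p = 0.0385 with median-ratio rescaling and 0.0259 with quantile normalization. Leaving out each library, without or with the term, gave 1 to 5 calls on average, 0 to 2 with guide 1 and 1 to 4 with guide 2. On average over the guides, other long noncoding RNA classes had 0 calls without the term, 11 with it, 11 and 13 with the 2 rescalings, 1 in replicates 1 and 2 alone and 0 to 12 when libraries were left out (with the term 9 without NTC replicate 2 or KHSRPi#2 replicate 3, and 7 without KHSRPi#1 replicate 1 or 3). Between replicate 3 and the others, a filter of 5 TPM called 11 LINC transcripts, and leaving out libraries called 13 to 28, the fewest without KHSRPi#2 replicate 3. The median log2 fold change of the LINC transcripts was 0.0267 at a pseudocount of 5 and 0.0284 under quantile normalization.

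Replicate numbers 1 and 2 did not pair the libraries. Deviations of their same-numbered pairs correlated at 0.0354 to 0.302, and those of replicate 1 with replicate 2 of another group at 0.205 to 0.342. The replicate 3 libraries went together, at 0.58 to 0.592 with each other and at -0.443 to -0.274 with the other numbers. Not every library correlated best with its own number. A replicate block called 4 LINC transcripts on average, 1 with guide 1 (LINC00565, not LINC00963), 3 with guide 2 and 8 of the other classes. Depth limits transcripts under 10 reads per library, and TPM gives their precision only through the replicates.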
